A study of Mus musculus with 10 samples.

Results

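The mouse miRNAs miR-669, miR-466, miR-467 and miR-297 form a large rodent family of near-identical hairpins, most of them in an intron of Sfmbt2, a gene for a Polycomb group protein. They were chosen here by name alone: the counts were summed for each mature name and every name with one of those 4 numbers was kept, with any letter and from either arm of the hairpin. This gave 61 of the 1432 mature names in the table. Small RNA libraries had been sequenced from embryonic mouse cortex at stage E13.5, with 2 mice per genotype, in a study of conditional knock-outs of Dicer and of DGCR8. There were 5 groups. The Dicer line gave knock-outs (Dicer KO) and wild types (Dicer WT), and the DGCR8 line gave knock-outs (DGCR8 KO), heterozygotes (DGCR8 HET) and wild types (DGCR8 WT). The sources used here give neither the Cre driver of the deletions nor the strain or the litters. Each library used 1000 ng of total RNA and the Illumina TruSeq chemistry for small RNA.

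A miRNA gene is copied into a long primary transcript, from which the nuclear complex of Drosha and DGCR8 cuts the hairpin. Dicer then cuts the hairpin to a short duplex, and one strand or the other stays in Argonaute. Sfmbt2 is imprinted and expressed from the paternal copy, above all in placenta and early embryo, and its intronic hairpins are known from embryonic stem cells and trophoblast. Their sequences grew from a repeated unit rich in alternating GU and AC, so that many members differ by few bases. A read may therefore match several members, and the sources used here do not say how such reads were assigned. The split of reads between members is uncertain for that reason, and summed values are given beside those of single members.

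Of the 61 names, 4 had a mature sequence in the RefSeq miRNA table (GRCm38.p6), all of them miR-466 members on chromosomes other than that of Sfmbt2. They are shown because they display the alternating repeat, with the seed (bases 2 to 8) in capitals.
miR-466i-3p: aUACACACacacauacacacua
miR-466j: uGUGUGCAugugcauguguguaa
miR-466k: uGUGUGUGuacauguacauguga
miR-466q: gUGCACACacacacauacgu
They lie at chr13:17747552-17747573, chr10:60960802-60960824, chr3:85467396-85467418 and chr3:28419988-28420007, each on the plus strand. For each sequence, the share of neighbouring pairs that read GU or UG was taken, and the share that read AC or CA. The larger of these shares was 59.1% to 71.4% in these 4 sequences. The median of this larger share over the 1679 mature entries of the table was 19.05%, and 10 entries (0.596%) reached the lowest value of the 4. The 4 seeds all differed from each other. These members were hardly read: miR-466i-3p had 4 reads over the 10 libraries, miR-466k had 2, miR-466j had 1 and miR-466q had none.

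RefSeq placed 82 hairpins of the 4 numbers on GRCm38.p6, and 72 of them lay within Sfmbt2 on chromosome 2 (chr2:10370440-10595253). Those 72 spanned 51.6 kb, from 10466663 to 10518279. In the GENCODE M21 annotation of GRCm38, all 72 lay in intron 10 of transcript Sfmbt2-201, and none overlapped an exon of a coding transcript. The other 10 were on chromosomes 3, 5, 7, 9, 10, 11 and 13. By reads the family was almost wholly that of the Sfmbt2 intron: 53 names with hairpins there alone took 97.1% of the family's reads. The 5 names with hairpins elsewhere alone (miR-466i-5p, miR-466i-3p, miR-466j, miR-466k and miR-466q) took 64 reads, or 0.840%. Another 3 names (miR-297a-5p, miR-466f and miR-466f-3p) had hairpins in both places and took 2.09%. There were 10 names that belonged to more than 1 hairpin, among them miR-467a with 10 copies, miR-297a with 4 and miR-669p with 2, and these names took 20.2% of the reads. The letters miR-466b (8 hairpins), miR-467f, miR-467g, miR-467h, miR-669j and miR-669n had no name among the 61. Of the 12 miR-669a hairpins only Mir669a-3 had one (miR-669a-3-3p, 10 reads). Whether reads of such hairpins were counted under other names is not stated, so the 20.2% may be too low.

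Names with a single hairpin of their own letter were placed along the intron by name. Names shared by several hairpins were not, so the shares that follow do not cover all reads of the intron. Reads of hairpins without a name, such as those of miR-466b, may be counted under the names placed here. The places are therefore those of names, and where the reads arose was not tested. In the first 20 kb of the intron, measured from the first hairpin, 14 hairpins with names of their own took 1588 reads, or 26.4% of the reads placed in this way. From 20 to 35 kb there were 16 hairpins and none had a name of its own. That stretch was not without reads: miR-669p-5p, with 533 reads, has its copies at 22.5 and 29.8 kb and was not placed. From 35 kb to the end, 15 hairpins took 4425 reads, or 73.6%. By name, the tallest single hairpins were Mir466p with 1285 reads at 39.3 kb, Mir669o with 1065 at 47.6 kb, Mir669c with 756 at 42.6 kb and Mir466e with 454 at 12.4 kb.

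**Figure D1:**
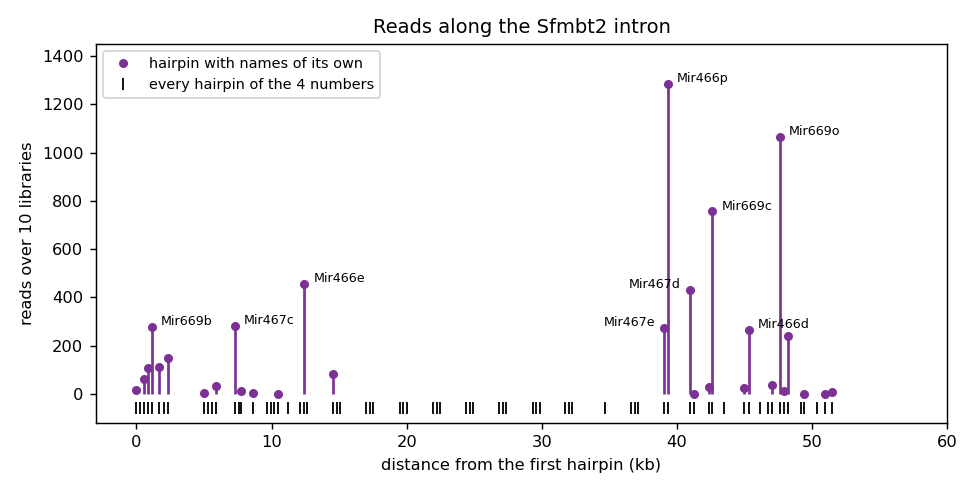
Reads over the 10 libraries (vertical axis) of each hairpin that has mature names of its own, against its distance in kb from the first hairpin of the Sfmbt2 intron; ticks below mark all 72 hairpins there. Of the reads shown, most lie beyond 35 kb, where Mir466p stands highest with 1285 reads. No hairpin between 20 and 35 kb has a mature name of its own in the table, and reads of names shared by several hairpins are not shown. Reads are placed by name, and those of hairpins without a name may be counted among them.

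The whole family had 7616 reads, which was 0.0322% of the miRNA reads of the 10 libraries, although it made up 4.26% of the names. The miRNA reads per library ran from 800623 to 4486774, and the Dicer KO libraries were the shallowest. miR-669 gave 3103 reads (40.7% of the family) from 23 names and miR-466 gave 2525 (33.2%) from 24 names. miR-467 gave 1852 reads (24.3%) from 10 names and miR-297 gave 1.79% of them from 4 names. The reads were concentrated in few names: the most abundant name held 16.8% of them, the first 3 held 39.6% and the first 10 held 77.8%. A further 6 names (miR-466a-5p, miR-466e-5p, miR-466q, miR-669d-3p, miR-669i and miR-669p-3p) had no read, which allows a share of up to 1.27e-05% of the miRNA reads of the 10 libraries. Another 19 names had 1 to 10 reads, and 24 names were read in every library. For names with few reads, differences between groups were not detectable at this depth. Intervals and floors given here cover counting error only, since the reads carry no molecular identifiers.

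By name, most hairpins were read from one arm. Arms were paired by name and the split of reads between near-identical members is uncertain. The shares below therefore describe names rather than single hairpins. Of the 17 with at least 50 reads, 9 had at least 80% of them from the 5′ arm and 5 had at most 20%. miR-466p was read from its 3′ arm, with 1277 reads against 8 from the 5′ arm. miR-669o was also a 3′ arm miRNA (973 reads against 92), as was miR-467d (357 against 73). The 5′ arm took 97.3% of the reads of miR-467a, 99.3% of those of miR-467c and 97.8% of those of miR-669b. All 533 reads of miR-669p were from the 5′ arm and all 454 reads of miR-466e from the 3′ arm. Within a number the arm could differ by name: the other miR-467 names given here were 5′ and miR-467d was 3′. The arm shares held across libraries for the deeper hairpins, with miR-467a between 95.5% and 100% from the 5′ arm and miR-466p at 2.13% or below. miR-669e (68.8% from the 5′ arm) and miR-669f (46.0%) were read from both arms.

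The table lists each mature name with a 3′ suffix, which is either none or 1 to 3 bases after the mature sequence. It does not say whether the added bases match the genome, so a longer cut and a base added by an enzyme cannot be told apart here. Reads without an added base were 55.1% to 66.0% of the family's reads per library and 52.5% to 63.5% of those of all other miRNAs, so the ranges overlapped. A single added T was 3.05% to 5.31% of the family's reads but 17.4% to 22.1% of the others, and the ranges did not meet. Added stretches of 3 bases were 10% to 18.5% of the family's reads against 4.21% to 6.95% of the others, again without meeting. Most of the family's reads with 3 added bases came from a single member, miR-466p-3p, which carried 3 bases on 71.1% of its 1277 reads. The higher share is therefore not a trait of the members at large. A single added G was 1.52% to 3.73% against 0.373% to 1.74%, with overlap. These are descriptions over libraries and no test was made of them.

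Members differed widely in this respect. Of the 19 members that passed the low-count filter described below, 13 were most often read without an added base, and the share of such reads ran from 3.65% for miR-466h-3p to 98.1% for miR-669p-5p. miR-669o-3p had 96.3% of its reads without an added base and miR-467a-5p had 97.0%. miR-466p-3p, the most abundant member, carried TAA on 58.7% of its reads, between 45.7% and 69.4% by library. A further 27.9% of its reads had no added base and 8.30% carried CCA. miR-669c-5p carried AT on 62.3% of its reads, between 48.8% and 70.8% by library. miR-466h-3p carried ACA on 46.4% and AC on 33.3%, and miR-466d-3p carried A on 51.2% and T on 32.8%. The preferred suffix of miR-466p-3p and of miR-669c-5p was the most frequent one in each of the 10 libraries, wild type and knock-out alike.

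**Figure D2:**
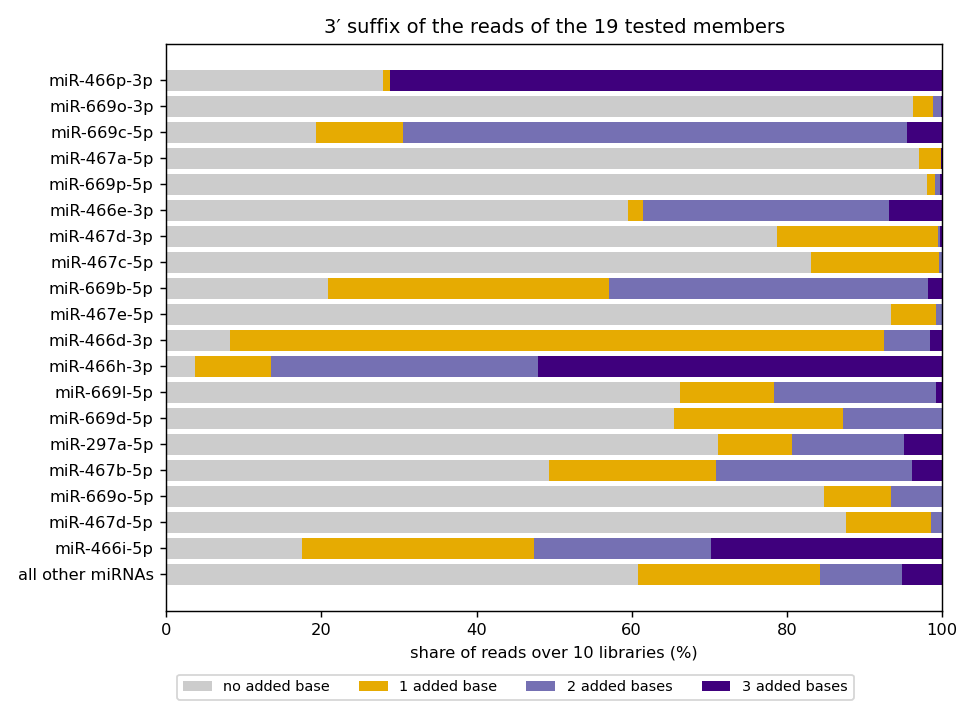
Share of reads (%, horizontal axis, summed over the 10 libraries) with no, 1, 2 or 3 added bases at the 3′ end for each of the 19 tested members, in order of abundance, with all other miRNAs pooled in the last bar. Members range from 3.65% without an added base (miR-466h-3p) to 98.1% (miR-669p-5p), and the most abundant member, miR-466p-3p, mostly carries 3 added bases.

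As a share of all miRNA reads, the family was higher in both knock-outs than in their wild types. It was 0.0358% and 0.0299% in the 2 Dicer WT libraries and 0.0437% and 0.0492% in the 2 Dicer KO libraries. The 95% Wilson intervals of the Dicer KO libraries (0.0398% to 0.0481% and 0.0446% to 0.0543%) lay above those of the Dicer WT libraries (0.0340% to 0.0377% and 0.0284% to 0.0316%). Such intervals cover counting error only, and those of the 2 Dicer WT libraries did not meet each other either. They do not measure the spread between mice, so they cannot decide whether the groups differ. In the DGCR8 line it was 0.0260% and 0.0231% in wild type, 0.0273% and 0.0260% in the heterozygotes and 0.0474% and 0.0350% in the knock-outs. The ratio of the mean shares was 1.41 for Dicer KO over Dicer WT, 1.68 for DGCR8 KO over DGCR8 WT, 1.09 for DGCR8 HET over DGCR8 WT and 1.55 for DGCR8 KO over DGCR8 HET. No p is given for these sums, and 2 libraries against 2 cannot go below 0.333 in an exact two-sided permutation test.

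A share of all reads depends on what the rest of the library does. On read counts scaled to library size (CPM) with TMM factors, which sets most miRNAs level between libraries, the differences were smaller. The family summed to 400.4 and 351.2 CPM in Dicer WT, against 429.0 and 476.5 in Dicer KO, so the groups did not overlap but the ratio of means was 1.20. It summed to 269.4 and 251.7 CPM in DGCR8 WT, 280.9 and 280.3 in DGCR8 HET and 367.2 and 288.8 in DGCR8 KO, a ratio of 1.26 for knock-out over wild type. The DGCR8 KO mean of 328.0 ± 55.5 CPM (SD, n = 2) had the widest spread of the 5 groups, and replicate 1 gave the higher value.

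**Figure D3:**
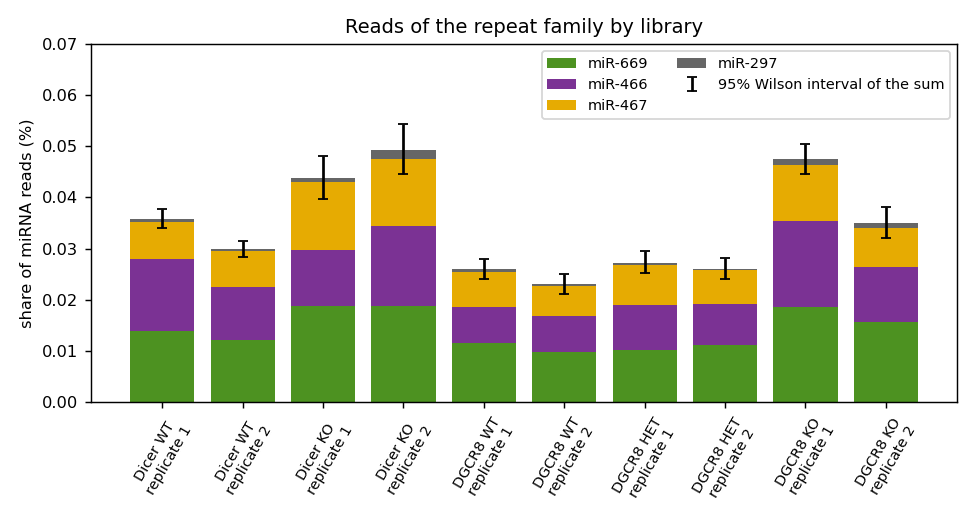
Share of miRNA reads (%) taken by the 4 numbers in each of the 10 libraries, stacked by number, with the 95% Wilson interval of the sum. Both Dicer KO libraries (0.0437% and 0.0492%) stand above both Dicer WT libraries, and both DGCR8 KO libraries (0.0474% and 0.0350%) stand above the DGCR8 WT and DGCR8 HET libraries.

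Shares of marker miRNAs of neural and of other tissues also differed between the groups. The share of 5 neural miRNAs (miR-9 from both arms, miR-124-3p, miR-128-3p and miR-92b-3p) was 21.7% to 24.1% in Dicer WT, 12.1% to 13.6% in Dicer KO, 20.4% to 22.2% in DGCR8 WT, 21.0% to 21.5% in DGCR8 HET and 14.9% to 15.03% in DGCR8 KO, with none of the 5 at 0. The share of 4 vessel wall miRNAs was 0.695% to 0.847% in Dicer WT, against 2.30% to 2.77% in Dicer KO, and 0.320% to 0.329% in DGCR8 WT, 0.358% to 0.686% in DGCR8 HET and 0.573% to 0.582% in DGCR8 KO. The share of 5 blood miRNAs was 0.297% to 0.391% in Dicer WT and 0.972% to 1.04% in Dicer KO, against 0.264% to 0.271% in DGCR8 WT, 0.225% to 0.256% in DGCR8 HET and 0.352% to 0.456% in DGCR8 KO. Of 12 listed miRNAs of stem cells and trophoblast, 9 were in the table. Up to 3 of them were at 0 in Dicer WT and in Dicer KO, up to 6 in DGCR8 WT and in DGCR8 HET and up to 7 in DGCR8 KO. Their summed share was 0.000646% to 0.000899% in Dicer WT and 0.00183% to 0.00287% in Dicer KO. In the DGCR8 line it was 0.000537% to 0.000578% in DGCR8 WT, 0.000592% to 0.000608% in DGCR8 HET and 0.00111% to 0.00134% in DGCR8 KO. The share of 3 muscle miRNAs, of which up to 2 were at 0 in a library, was 0.000513% to 0.000874% in Dicer WT and 0.00187% to 0.00559% in Dicer KO. It was 0.00103% to 0.00123% in DGCR8 WT, 0.00173% to 0.00186% in DGCR8 HET and 0.00365% to 0.00482% in DGCR8 KO, so the knock-outs stood above the wild types in both lines. The liver miRNA was at most 0.000372% of the reads of any library. Its share was 7.49e-05% to 0.000111% in Dicer WT and 0.000125% to 0.000203% in Dicer KO. In the Dicer KO libraries, 3 reads would make 0.000305% and 0.000375%. Both Dicer KO values were below that, so no rise can be read from them. The share was 0.000230% to 0.000372% in DGCR8 WT and 6.51e-05% to 0.000298% in DGCR8 KO, with overlap. The part of these differences in the values of the repeat family was not tested. In bulk tissue, fewer cells of a type and less RNA per cell cannot be told apart. Neither targeted gene can be checked in small RNA libraries, and the DGCR8 libraries were matched to their labels on line and index, since the code in their column names, whose meaning is not stated, differs from that in the labels.

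Tests across miRNAs were made in one edgeR quasi-likelihood fit over the 10 libraries, with Benjamini-Hochberg adjustment over the 557 names that passed a filter on low counts. Of the 61 members, 19 passed, and these took 92.0% of the family's reads. The 42 others had at most 75 reads each and are not tested. With nothing said of litters, the p-values measure the spread between these mice only. A fold change is on the log2 scale with its standard error.

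In Dicer KO against Dicer WT, 1 of the 19 tested members was called higher and none lower at adjusted p below 0.05, while 30.9% of all tested names were called (14.9% higher and 16% lower). The called member was miR-467d-3p, from the 3′ arm of a hairpin 41.0 kb from the first hairpin of the intron. It had 15.1 and 16.7 CPM in Dicer WT, against 28.9 and 32.7 in Dicer KO, and the groups did not overlap. Its log2 fold change was 0.95 ± 0.25, with an adjusted p of 0.0188 in edgeR. In the DGCR8 line the same member stood at 12.3 and 9.92 CPM in wild type, 14.4 and 14.8 in the heterozygotes and 15.4 and 12.4 in the knock-outs, a log2 fold change of 0.32 ± 0.26 for knock-out over wild type (adjusted p = 0.383 in edgeR). The difference between those knock-out effects was itself tested, and did not pass: -0.62 on the log2 scale, with an adjusted p of 0.378 in edgeR. The log2 fold change stayed at 0.80 to 1.01 when any one of the 4 Dicer libraries was left out, but the call was kept only without Dicer KO replicate 1, at an adjusted p of 0.0468 in edgeR. Without Dicer WT replicate 1 its adjusted p in edgeR was 0.0870, without Dicer WT replicate 2 0.0673 and without Dicer KO replicate 2 0.0956, and DESeq2 gave 0.0529. With no filter on low counts it was 0.197 in edgeR, and with the lines fitted apart 0.0766.

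The other abundant members did not pass in the Dicer line. miR-669o-3p had 47.7 and 51.0 CPM in Dicer WT, against 60.9 and 53.2 in Dicer KO. miR-669c-5p had 32.6 and 28.8 CPM in Dicer WT, against 40.9 and 49.6 in Dicer KO. miR-467a-5p, the name shared by 10 hairpins, had 33.2 and 33.5 CPM in Dicer WT, against 39.9 and 47.2 in Dicer KO. For these 3 members the Dicer KO values were above the Dicer WT values, at log2 fold changes of 0.21 ± 0.21, 0.56 ± 0.27 and 0.38 ± 0.23 (adjusted p = 0.464, 0.146 and 0.227 in edgeR). miR-669p-5p had 27.6 and 25.6 CPM in Dicer WT, against 39.9 and 46.0 in Dicer KO, a log2 fold change of 0.69 ± 0.27 (adjusted p = 0.0856 in edgeR). miR-466p-3p had 80.6 and 68.8 CPM in Dicer WT, against 45.9 and 75.0 in Dicer KO, so the groups overlapped (log2 fold change -0.31 ± 0.27). miR-466e-3p, at 30.7 and 22.8 CPM in Dicer WT, against 14.97 and 25.4 in Dicer KO, overlapped as well.

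The median log2 fold change of the 19 members in Dicer KO was 0.38, beside -0.00984 over all 557 names, and 13 of the 19 were above 0. Levels did not overlap between the groups for 9 members that were higher and 3 that were lower in Dicer KO, where 33.2% and 33.6% of all tested names did so. The numbers differed: the 6 tested miR-467 members had a median of 0.79 and all 6 were above 0, the 7 miR-669 members had 0.21, and the 5 miR-466 members had -0.31. The largest difference among the members was that of miR-466i-5p, which was named after its values were seen and is one of the few encoded outside Sfmbt2, on chromosome 13. It had 3.35 and 0.785 CPM in Dicer WT, against 8.98 and 7.26 in Dicer KO, a log2 fold change of 1.98 ± 0.69 with an adjusted p of 0.0572 in edgeR. These levels rested on 12 and 3 reads (wild type) against 9 and 6 (knock-out). Only the Dicer KO libraries reached the level set by the low-count filter, so the member was tested through the group where it stood highest. Leaving out 1 library moved its log2 fold change between 1.26 (without Dicer WT replicate 2) and 3.29 (without Dicer WT replicate 1). The adjusted p in edgeR was 0.0389 with library totals, 0.0478 with RLE factors and 0.0159 with no filter. It was 0.0459 with the replicate block and 0.0733 with the lines fitted apart, and DESeq2 gave 0.160. The member was not tested after thinning or in reads without an added base. In DGCR8 WT it had 2.38 and 2.71 CPM and in DGCR8 KO 0.770 and 2.69.

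In DGCR8 KO against DGCR8 WT, none of the 19 members was called by edgeR, where 20.6% of all tested names were called (8.8% higher and 11.8% lower). By unadjusted p below 0.05 there was 1 member, beside 202 of all 557 names, and DESeq2 called 1 member, beside 126 of all names. That member was miR-466p-3p, with 32.2 and 37.9 CPM in DGCR8 WT, 43.6 and 38.8 in DGCR8 HET and 64.7 and 51.1 in DGCR8 KO. The knock-out libraries stood above the others, and the log2 fold change was 0.73 ± 0.27 with an adjusted p of 0.0870 in edgeR. miR-669c-5p had 32.6 and 28.0 CPM in DGCR8 WT, 20.9 and 29.6 in DGCR8 HET and 46.2 and 36.0 in DGCR8 KO (log2 fold change 0.44 ± 0.27 for knock-out over wild type). miR-669o-3p had 38.2 and 35.6 CPM in DGCR8 WT, 34.8 and 31.4 in DGCR8 HET and 40.0 and 38.2 in DGCR8 KO (log2 fold change 0.08 ± 0.21). miR-467a-5p had 31.0 and 32.9 CPM in DGCR8 WT, 35.7 and 30.1 in DGCR8 HET and 32.3 and 28.5 in DGCR8 KO, with overlap. miR-669p-5p, at 21.1 and 13.53 CPM in DGCR8 WT, against 19.6 and 19.9 in DGCR8 KO, overlapped too, as did miR-466e-3p, at 11.5 and 13.53 CPM in DGCR8 WT, against 23.1 and 11.3 in DGCR8 KO. In DGCR8 HET these last members had 16.6 and 21.4 CPM (miR-669p-5p) and 19.2 and 16.1 CPM (miR-466e-3p).

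The median over the 19 members in DGCR8 KO was 0.26, beside 0.0167 over all names, and 15 of the 19 were above 0. In all, 6 members were higher without overlap and none was lower, where 32.9% and 38.2% of all tested names did so. By number, the medians were 0.73 for miR-466, 0.15 for miR-467 and 0.19 for miR-669. As another large imprinted cluster, chosen with earlier results of these data known, the miRNAs of 12qF1 had 75 tested names. Their median was 0.79 in Dicer KO, where 30 were called higher, beside 14.9% of all tested names. In DGCR8 KO it was 0.78, where 26 were called higher, beside 8.8% of all tested names. No 12qF1 name was called lower in either knock-out, beside 16% (Dicer KO) and 11.8% (DGCR8 KO) of all tested names.

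**Figure D4:**
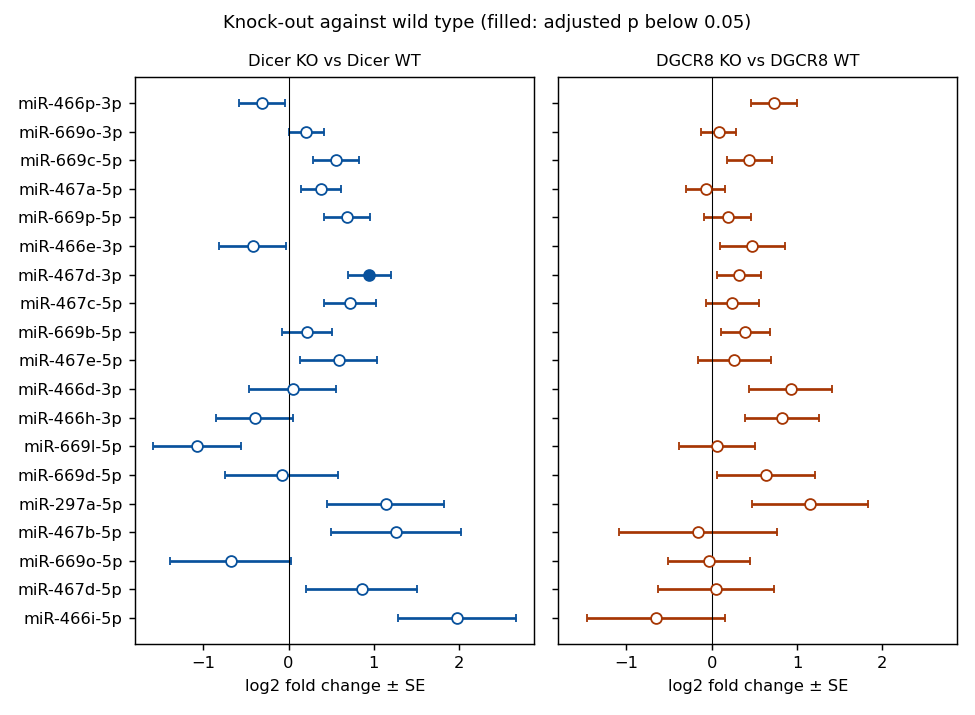
Log2 fold change ± SE (horizontal axis) of each of the 19 tested members in Dicer KO against Dicer WT (left) and DGCR8 KO against DGCR8 WT (right), ordered by abundance; a filled point marks an adjusted p below 0.05 in edgeR. The one filled point is miR-467d-3p in the Dicer line at 0.95, and miR-466p-3p lies at -0.31 on the left and at 0.73 on the right.

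In DGCR8 HET against DGCR8 WT, none of the 19 members was called by edgeR and DESeq2 called none either, where 0% of all tested names were called by edgeR. No member had an unadjusted p below 0.05 (23 of all 557 names did). The median log2 fold change was 0.14, with 6 members higher and 2 lower without overlap (18.1% and 21% of all names). Against the heterozygotes, the DGCR8 knock-outs had no called member in edgeR or DESeq2 (8.62% of all names were called in edgeR, 1.97% higher and 6.64% lower), and 4 members were higher and 1 lower without overlap (27.3% and 34.5% of all names). By unadjusted p below 0.05 there was 1 member, miR-669c-5p, beside 170 of all 557 names, with a log2 fold change of 0.70 ± 0.27 and an adjusted p of 0.120 in edgeR. The DGCR8 comparisons share their wild-type, heterozygote or knock-out libraries and are not independent.

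The difference between the knock-out effects was tested as an interaction. No member passed in edgeR or DESeq2 (2.15% of all names passed in edgeR), and 2 members had an unadjusted p below 0.05, beside 114 of all 557 names. For miR-466p-3p the effect of DGCR8 KO exceeded that of Dicer KO by 1.04 ± 0.38 on the log2 scale, with an adjusted p of 0.162 in edgeR. For miR-466i-5p it was -2.63 ± 1.06, with an adjusted p of 0.203 in edgeR. The miR-466 members had a median difference of 0.90 and the miR-467 members one of -0.55.

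In DGCR8 WT against Dicer WT, 1 of the 19 members was called lower and none higher, where 7.54% of all tested names were called (2.69% higher and 4.85% lower), so the members' count did not exceed the background. It was miR-466p-3p, which was 2.13-fold lower in DGCR8 WT, with a log2 fold change of -1.09 ± 0.27 and an adjusted p of 0.0392 in edgeR. Its call was lost when any one of the 4 wild-type libraries was left out, at an adjusted p of 0.0797 to 0.303 in edgeR, while the log2 fold change stayed at -1.18 to -0.92. Over all names, the 42 calls fell to 1 to 24 in the same fits. The median over the 19 members was -0.47, beside -0.13 over all names, and 11 members were lower and 1 higher without overlap (39.7% and 21.9% of all names). Whether the lines were prepared or sequenced together is not stated in the labels, so line and any such batch cannot be told apart.

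**Figure D5:**
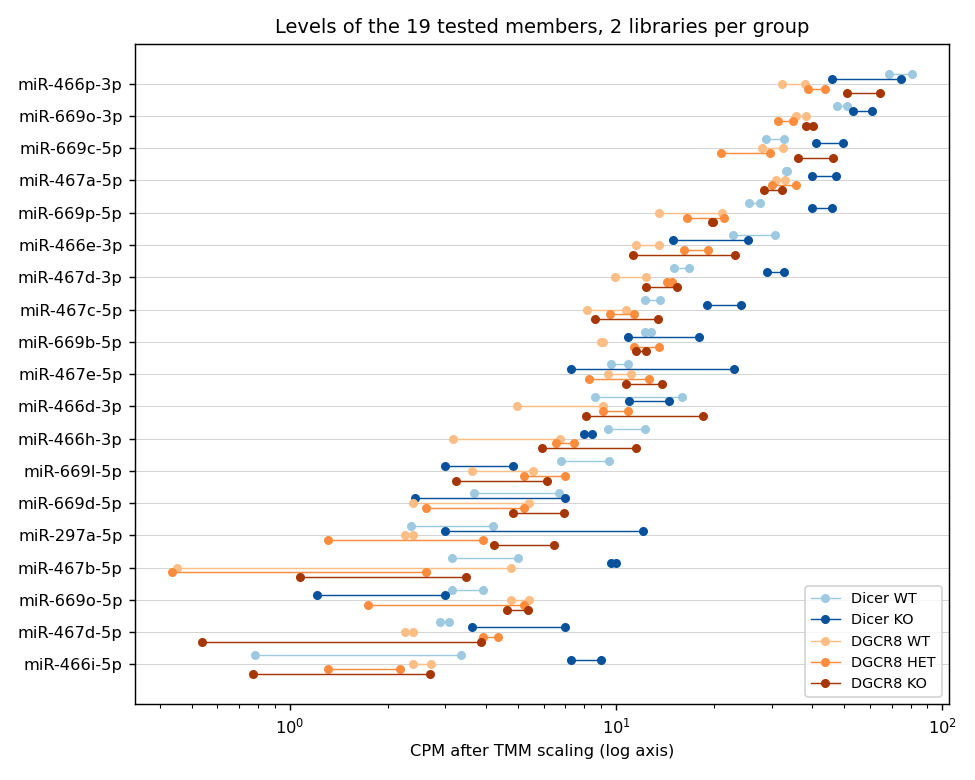
CPM after TMM scaling (log axis) of the 19 tested members in the 5 groups, 2 libraries per group joined by a line, ordered by mean CPM. miR-466p-3p runs from 32.2 CPM in a DGCR8 WT library to 80.6 CPM in a Dicer WT library, and the members below about the tenth place carry few reads and spread widely within groups.

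Summing every name of the table by number and arm avoids the split between copies with different letters. It left 461 sums tested, 7 of them in this family. The CPM of the sums were scaled with the TMM factors of the single names. Their log2 fold changes come from a separate fit of the sums, with TMM factors of its own. A fold change of a sum can therefore differ from the ratio of the CPM printed beside it. The sums named below as called share most of their reads with members called above. miR-467d-3p held 357 of the 398 reads of miR-467-3p, and miR-466p-3p held 1277 of the 2263 reads of miR-466-3p. In Dicer KO, 1 of the 7 was called, where 30.2% of all such sums were called: miR-467-3p had 16.5 and 19.1 CPM in Dicer WT, against 32.9 and 35.1 in Dicer KO, a log2 fold change of 0.85 ± 0.25 with an adjusted p of 0.0288 in edgeR. That call was lost without any one of the 4 Dicer libraries, at an adjusted p of 0.0830 to 0.137, while the log2 fold change stayed at 0.71 to 0.93. miR-467-5p had 65.9 and 61.5 CPM in Dicer WT, against 98.8 and 91.9 in Dicer KO (log2 fold change 0.50 ± 0.22). miR-669-5p had 100.5 and 86.9 CPM in Dicer WT, against 118.7 and 120.9 in Dicer KO (0.27 ± 0.22), and miR-669-3p had 54.4 and 55.2 against 64.9 and 61.7 (0.12 ± 0.21). miR-466-3p had 143.7 and 114.6 CPM in Dicer WT, against 84.8 and 128.2 in Dicer KO, with overlap (-0.38 ± 0.27). miR-466-5p had 10.05 and 4.19 CPM in Dicer WT, against 14.97 and 19.3 in Dicer KO (1.17 ± 0.45), and miR-297-5p had 5.30 and 4.45 against 4.99 and 15.7 (0.94 ± 0.52).

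In DGCR8 KO against DGCR8 WT, no sum of the family was called (18.4% of all sums were), and none in DGCR8 HET against DGCR8 WT (0%) or in DGCR8 KO against DGCR8 HET (6.51%). miR-466-3p had 61.6 and 64.1 CPM in DGCR8 WT, 81.5 and 77.2 in DGCR8 HET and 120.9 and 77.4 in DGCR8 KO. The wild types were the lowest and 1 knock-out library stood far above the other (log2 fold change 0.71 ± 0.27, adjusted p = 0.0986 in edgeR). miR-669-5p had 79.5 and 68.6 CPM in DGCR8 WT, against 101.6 and 87.6 in DGCR8 KO (0.41 ± 0.22). The other sums had log2 fold changes of -0.15 to 1.05, the last for miR-297-5p, at 3.58 and 2.71 CPM in DGCR8 WT, against 5.39 and 7.53 in DGCR8 KO. In DGCR8 WT against Dicer WT, miR-466-3p alone of the 7 was called (8.68% of all sums were), at a log2 fold change of -1.04 ± 0.27 and an adjusted p of 0.0440 in edgeR. That call too was lost without any one of the 4 wild-type libraries, at an adjusted p of 0.0568 to 0.251, with a log2 fold change of -1.20 to -0.88. The difference between knock-out effects in miR-466-3p was 1.09 ± 0.38, with an adjusted p of 0.155 in edgeR, and no sum passed (1.74% of all sums did).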

How the data were processed

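Small RNA libraries of 10 embryonic cortices (5 groups of 2 mice) were analysed from the deposited table of raw read counts per miRNA name and 3′ suffix. Per the submitters' processing notes, the authors used Bowtie and the GRCm38 build. The sources used here state no alignment settings and no rule for reads that match more than 1 hairpin. The libraries held 800623 to 4486774 miRNA reads, and precision is limited by the reads of each member. Counts were summed per mature name over all suffixes. The members and lists were chosen with earlier results of these data known.

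Names were kept by filterByExpr (minimum count 10, minimum total 15). They were tested with edgeR 4.0.16 in R 4.3.3, with TMM scaling, 1 mean per group and a quasi-likelihood fit over all 10 libraries, two-sided, with Benjamini-Hochberg adjustment over all tested names and calls at adjusted p below 0.05. The fit had a common biological coefficient of variation of 0.230. The steps were tested on simulated data. DESeq2 1.42.0, library totals, RLE factors, no filter, the lines fitted apart, a replicate block, reads without an added base, thinning every library to 800623 reads and leaving out each library were alternatives. Values per library, calls, the 6 members highest by mean CPM and the sums by number and arm are named, and the other tested members are given by range.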

Additional observations from a re-analysis of the deposited data

How the results depend on the processing

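Calls in this family were few and changed with the scaling and with single libraries. The 1 member called in Dicer KO (beside 172 of all 557 names) became 4 with library totals (188), 2 with RLE factors (182), 2 with the replicate block (163), 2 after thinning (143 of 443), 0 in DESeq2 (165) and 0 with the lines fitted apart (111 of 523). It was 0 to 1 when a library was left out, beside 99 to 184 of all names, and without Dicer WT replicate 1 or with no filter the called member was miR-466i-5p, not miR-467d-3p. Of the 7 number-and-arm sums, 3 rather than 1 were called in Dicer KO with library totals, beside 164 of all 461 sums. In DGCR8 KO, where no member was called, 1 was called (miR-466p-3p) in 4 alternatives. These were library totals (beside 119 of all 557 names), thinning (81 of 443), the lines fitted apart (166 of 532) and DESeq2 (126 of 557). With library totals 2 of the 7 sums were called, beside 110 of all 461. Against DGCR8 HET, 1 member was called with library totals, beside 76 of all 557 names. The 1 member called in DGCR8 WT against Dicer WT became 0 with library totals, RLE factors, the replicate block, reads without an added base, and without any one library, and so did the 1 sum with library totals and the block. Library totals moved the median of all names by 0.23 (Dicer KO) and 0.41 (DGCR8 KO) on the log2 scale. The median log2 fold change of the members in Dicer KO, 0.38, was 0.0358 with no filter, which takes in the members with few reads, and 0.18 without Dicer KO replicate 1. In DGCR8 KO, 0.26 became 0.68 with library totals, 0.53 without DGCR8 KO replicate 2 and 0.14 without DGCR8 KO replicate 1. The median of the difference between knock-out effects, -0.11, ran from -0.30 to 0.40 over the alternatives. The cause of the other differences was not tested.

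Signs reversed in the following values, none of which was called in the reported fit. The log2 fold change of miR-466e-3p in Dicer KO was 0.0202 after thinning, and that of miR-467d-3p in DGCR8 KO was -0.13 after thinning. In DGCR8 KO that of miR-467a-5p was 0.35 with library totals, 0.0329 with RLE factors, 0.0416 in reads without an added base, 0.00744 with the lines fitted apart and 0.0352 in DESeq2. The miR-466-5p sum in DGCR8 KO was 0.21 with library totals. With 1 library left out, the DGCR8 KO values ran from -1.59 to 0.14 for miR-466i-5p, -0.13 to 0.0876 for miR-467a-5p, -0.0964 to 0.53 for miR-669p-5p and -0.0881 to 0.95 for miR-466e-3p. Among the sums they ran from -0.54 to 0.20 for miR-466-5p and -0.15 to 0.29 for miR-467-5p, and in Dicer KO from -0.0230 to 1.41 for miR-297-5p and -0.0992 to 0.18 for miR-669-3p.

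In reads without an added base, the share of the family in Dicer KO was 0.0533% and that of miR-297 in DGCR8 KO was 0.00114%. The share of miR-466 was 0.00663% in Dicer WT, 0.00740% in Dicer KO, 0.00426% in DGCR8 WT, 0.00465% in DGCR8 HET and 0.00737% in DGCR8 KO. The share of miR-467 was 0.0105%, 0.0212%, 0.00904%, 0.0107% and 0.0127% in the same groups, and that of miR-669 was 0.0148% in Dicer WT and 0.0233% in Dicer KO.

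The samples share only a number: the deviations of same-numbered libraries correlated at -0.0500 to 0.17 across names. The replicate block gave 2 members called in Dicer KO.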
